A study of Saccharomyces cerevisiae with 6 samples.

Results

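The peroxisomal beta-oxidation enzymes of baker's yeast, Saccharomyces cerevisiae, are described here by the RNA levels of 10 genes. They were chosen by name along the pathway: the fatty acid importer genes PXA1 and PXA2, the activating enzyme FAA2, the enzymes of the cycle POX1, FOX2 and POT1, the auxiliary enzymes SPS19, ECI1 and IDP3, and the peroxisomal catalase CTA1. Each had 1 gene model among the 5479 of the authors' deposited table, and all 10 were tested there. RNA-seq compared 2 strains in aerobic, glucose-limited chemostats, with 3 libraries from independent cultures per strain. CEN.PK113-7D, the reference, carries ACS1 and ACS2. IMY104 has the genotype acs1Δ acs2Δ, so both acetyl-CoA synthetases, which turn acetate into acetyl-CoA outside the mitochondria, are missing. Its plasmid is pUDC140 (CEN6 ARS4), which bears pdhA, pdhB, aceF and lpd, the pyruvate dehydrogenase genes of the bacterium Enterococcus faecalis, and the lipoylation genes lplA and lplA2. Every culture was held at 30 °C, pH 5.0 and a dilution rate of 0.10 per h, on medium with 7.5 g/L glucose, 500 ng/mL lipoic acid and no fatty acid named as a substrate. The table's own row label for the IMY104 libraries names a CEN.PK strain other than the reference, so strain ancestry and the acetyl-CoA route cannot be told apart as sources of a difference.

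In yeast, unlike in animals, fatty acids are broken down in the peroxisome alone. Long-chain acyl-CoA enters through the transporter pair Pxa1 and Pxa2, medium-chain fatty acids are activated inside by Faa2, and each turn of the cycle runs through the acyl-CoA oxidase Pox1, the hydratase and dehydrogenase Fox2 and the thiolase Pot1, which releases acetyl-CoA. Unsaturated fatty acids also need the dienoyl-CoA reductase Sps19, the isomerase Eci1 and the NADPH made by the isocitrate dehydrogenase Idp3. Pox1 passes electrons to oxygen, and catalase A, the product of CTA1, removes the hydrogen peroxide that results. The genes are repressed by glucose, derepressed by the factor Adr1 when glucose runs out, and induced further on oleate by the factor pair Oaf1 and Pip2, which binds the oleate response element.

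Stretches upstream of the members that match the motifs of these factors are shown first. Their part in the strain difference was not tested. An oleate response element was searched for as CGG and CCG with 15 to 18 bases between them, which reads the same on both strands, and an Adr1 word as TTGGAG or TTGGGG on either strand. Sequences are those of the reference strain S288C (RefSeq, R64), found by gene name and not by the coordinates of the deposited table. The cultured strains may differ from them. Each line runs 5′ to 3′ on the strand of its gene, from the element nearest the first coding base to the first Adr1 word after it, with the triplets of the element and the Adr1 word in capitals. CTA1 lies at chrIV:969839-969889, minus strand, SPS19 at chrXIV:259412-259447, plus strand, and POX1 at chrVII:107883-107911, plus strand. FAA2 lies at chrV:184355-184399, plus strand, FOX2 at chrXI:457258-457325, minus strand, POT1 at chrIX:41563-41632, minus strand, and ECI1 at chrXII:707154-707213, minus strand.
CTA1: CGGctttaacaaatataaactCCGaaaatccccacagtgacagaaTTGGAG
SPS19: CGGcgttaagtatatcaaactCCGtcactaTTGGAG
POX1: CGGtcattagcggctaatagCCGTTGGGG
FAA2: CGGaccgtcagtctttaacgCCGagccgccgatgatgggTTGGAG
FOX2: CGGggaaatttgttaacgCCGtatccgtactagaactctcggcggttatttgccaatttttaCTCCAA
POT1: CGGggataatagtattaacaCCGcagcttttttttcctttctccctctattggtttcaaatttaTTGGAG
ECI1: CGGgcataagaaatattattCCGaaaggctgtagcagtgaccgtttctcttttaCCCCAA

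In POX1 the Adr1 word follows the element with no base between them, and in SPS19 with 6. POX1 and FOX2 each hold another element further upstream, whose first bases lie 312 and 304 bases before the first coding base and which are not printed. The elements of IDP3 and PXA2 stood far from an Adr1 word or had none, and are shown with 10 bases on each side and the triplets in capitals. IDP3 has its element at chrXIV:614509-614531, plus strand, and its Adr1 word 181 bases further on. PXA2 has its element at chrXI:89035-89058, minus strand, and no Adr1 word.
IDP3: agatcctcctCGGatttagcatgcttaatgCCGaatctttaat
PXA2: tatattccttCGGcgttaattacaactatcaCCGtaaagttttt

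The element was present in 5 of the 10 genes (FAA2, POT1, SPS19, ECI1 and CTA1) within 250 bases before to 50 after the first coding base, against 4.10% of 6002 nuclear protein-coding genes in windows of the same length. With 500 bases before the start, a window chosen after the first count, it was present in 9 genes, against 9.31% of all. PXA1 was the exception. An Adr1 word stood in 9 of the 10 in the shorter window, PXA2 being the exception, against 16.4% of all. In each of the 8 genes with both motifs an Adr1 word lay between the element and the first coding base. Of the 140 genes of R64 that hold both motifs in the 500 bases before the start, the 8 included, 59.3% have that order. The Adr1 word and the stress response element can share bases, and the letters of the element and of the Adr1 word can abut, as in POX1. The stress response element, AGGGG on either strand, which binds Msn2 and Msn4, was found in IDP3 alone among the 10 in the shorter window, against 21.6% of all. With 500 bases before the start it was found in 3 of the 10 (POX1, SPS19 and IDP3), against 36.4% of all. A match here is a run of letters and says nothing on whether a factor was bound in these cultures. The members were already known to be under Adr1, Oaf1 and Pip2, so the counts describe them and are no support for that control.

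**Figure D1:**
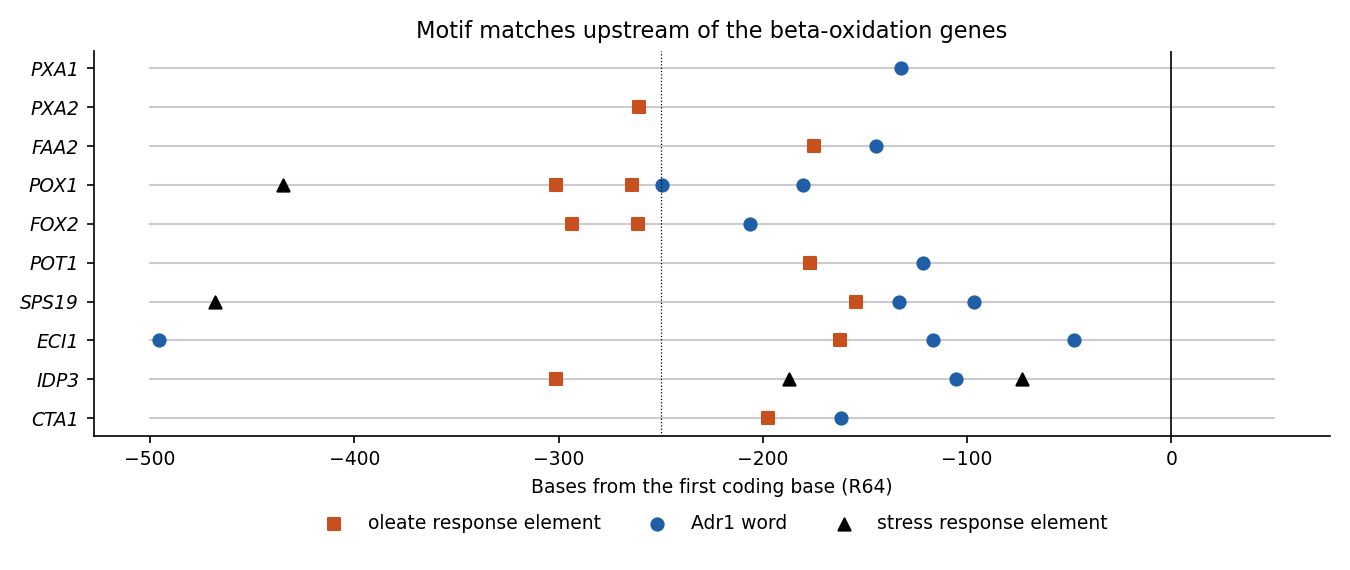
Motif matches upstream of the 10 beta-oxidation genes in R64. The x axis is the distance in bases from the first coding base, the dotted line marks 250 bases before it, squares are oleate response elements, circles Adr1 words and triangles stress response elements. In 8 genes a circle lies to the right of a square, and only PXA1 has no square.

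All 10 genes were lower in IMY104 and none was higher. The 10 were chosen with earlier results of these data known. In the authors' deposited table each passed the threshold of q under 0.05, where 11.0% of 5463 tested models were called lower and 11.6% higher. Among tested models with a reference level in the range of the 10 genes, the share called lower was 15.7%. The median log2 fold change of the 10 was -0.64, against 0.0076 over all tested chromosomal models, whose quartiles were -0.11 and 0.14. In the authors' deposited table, 9 of the 10 also had a q under 0.01, against 8.51% of all models called lower at that threshold. Of the 10 genes 6 fell at least 1.5-fold, against 2.82% of all models, and CTA1 alone fell at least 2-fold, against 1.06%. The level is given in FPKM, fragments scaled to the length of the model and to the total of fragments, as 1 value per strain over its 3 libraries. The table holds no value per library, so no spread between cultures and no depth can be given, and the error behind each difference is known only through the p-value of the authors' deposited table. For 8 of the 10 genes that p was 5e-05, the smallest in the table and shared with 581 models in all, so these genes cannot be ranked by it. In bulk RNA, fewer cells that express a gene and less of its RNA per cell cannot be told apart.

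The fatty acid importer is a pair of proteins, which share 31.5% of their aligned residues. PXA1 (YPL147W, chromosome 16, 273138 to 275750 on the assembly of the table) stood at 199 FPKM in the reference and at 118 in IMY104, a log2 fold change of -0.75. PXA2 (YKL188C, chromosome 11, 86207 to 88768) had 97.3 and 62.9 FPKM, a log2 fold change of -0.63. PXA2 was the lowest of the 10 genes in both strains, and PXA1 stood at 2.05 times its level in the reference and 1.88 times in IMY104. FAA2 (YER015W, chromosome 5, 182634 to 184868), the acyl-CoA synthetase of the peroxisome, had 335 and 215 FPKM, a log2 fold change of -0.64. Import and activation thus kept 59.5%, 64.7% and 64.1% of the reference level.

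The core of the cycle fell less. POX1 (YGL205W, chromosome 7, 108181 to 110427), the oxidase of the first step, went from 591 to 485 FPKM. Its log2 fold change of -0.29 was the smallest of the 10, and it carried the weakest call, with a q of 0.026 in the authors' deposited table. FOX2 (YKR009C, chromosome 11, 454340 to 457042), which carries the hydration and the dehydrogenation that follow on 1 protein, went from 388 to 280 FPKM, a log2 fold change of -0.47. POT1 (YIL160C, chromosome 9, 40189 to 41442), the thiolase that closes the turn, went from 281 to 207 FPKM, a log2 fold change of -0.44. The level of POX1 was 1.52 times that of FOX2 and 2.10 times that of POT1 in the reference, and 1.73 and 2.34 times in IMY104. The fall from the first enzyme of the cycle to the last in level was therefore present in both strains. Whether these ratios differ between strains was not tested, since that needs values per library.

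The auxiliary enzymes divided. ECI1 (YLR284C, chromosome 12, 691198 to 692040), the isomerase that moves a double bond into the place Fox2 can use, fell from 306 to 168 FPKM, a log2 fold change of -0.87. IDP3 (YNL009W, chromosome 14, 608811 to 610073), which supplies NADPH to the reductase, fell from 191 to 110 FPKM, with -0.79. SPS19 (YNL202W, chromosome 14, 253572 to 254450), the reductase itself, fell from 524 to 399 FPKM, with -0.39, the smallest fall after POX1. SPS19 had 2.75 times the level of IDP3 in the reference and 3.62 times in IMY104. POX1 and SPS19, which had the highest levels after CTA1 in the reference, were the members with the smallest falls.

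Catalase A stood apart in level and in change. CTA1 (YDR256C, chromosome 4, 967284 to 968831) stood at 1790 FPKM in CEN.PK113-7D, above 96.3% of tested models, and at 651 FPKM in IMY104. Its log2 fold change was -1.46, a fall of 2.75-fold, and 0.513% of tested models fell further. Its level was 3.03 times that of POX1 in the reference and 1.34 times in IMY104. CTA1 made up 38.1% of the summed FPKM of the 10 genes in the reference and 24.2% in IMY104. Without it the sum of the other 9 went from 2912 to 2045 FPKM.

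**Figure D2:**
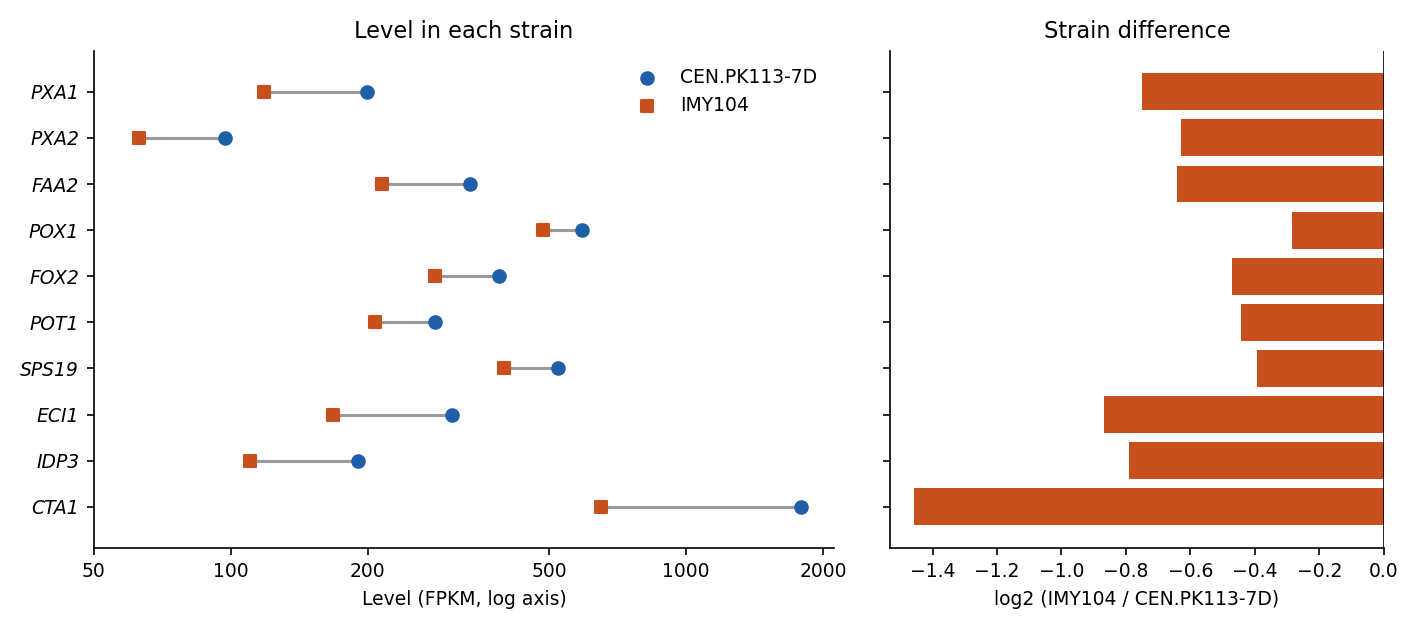
Levels and strain differences of the 10 genes in pathway order, from import (top) to hydrogen peroxide removal (bottom). On the left, circles are the FPKM in CEN.PK113-7D and squares those in IMY104 on a log axis, with 1 combined value per strain and no error bar. On the right, bars give the log2 ratio of IMY104 over CEN.PK113-7D, from -0.29 for POX1 to -1.46 for CTA1.

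The order of the levels was almost the same in both strains. From high to low in CEN.PK113-7D it was CTA1, POX1, SPS19, FOX2, FAA2, ECI1, POT1, PXA1, IDP3 and PXA2. In IMY104 ECI1 and POT1 had changed places, at 168 and 207 FPKM. With no value per library it could not be said which neighbours in this order differ beyond their spread. In the reference the lowest of the 10, PXA2, lay above 54.6% of tested models.

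CTA1 lies in a stretch of chromosome 4 in which neighbouring genes were lower too. From GCD6 to DIN7, 883756 to 994562 on the assembly of the table, 49 tested models in a row had a lower level in IMY104, and 45 of them were called lower in the authors' deposited table. The next longest such run on any chromosome held 12 models. Without CTA1 the median log2 fold change of the run was -0.51, with quartiles of -0.57 and -0.40, and CTA1 was the second lowest of it after CRF1, at -2.07. The gene on its left, RMD5, a part of a ubiquitin ligase, had -0.55 and the gene on its right, RKM4, a methyltransferase of ribosomal proteins, had -0.21 and was not called. CTA1 fell by a further 0.95 on the log2 scale beyond the median of the run, or 1.93-fold. The part of the run in the value of CTA1 was not tested. The run also held ADR1, the activator named above, and PEX5, the receptor that brings enzymes into the peroxisome, with log2 fold changes of -0.29 and -0.51.

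**Figure D3:**
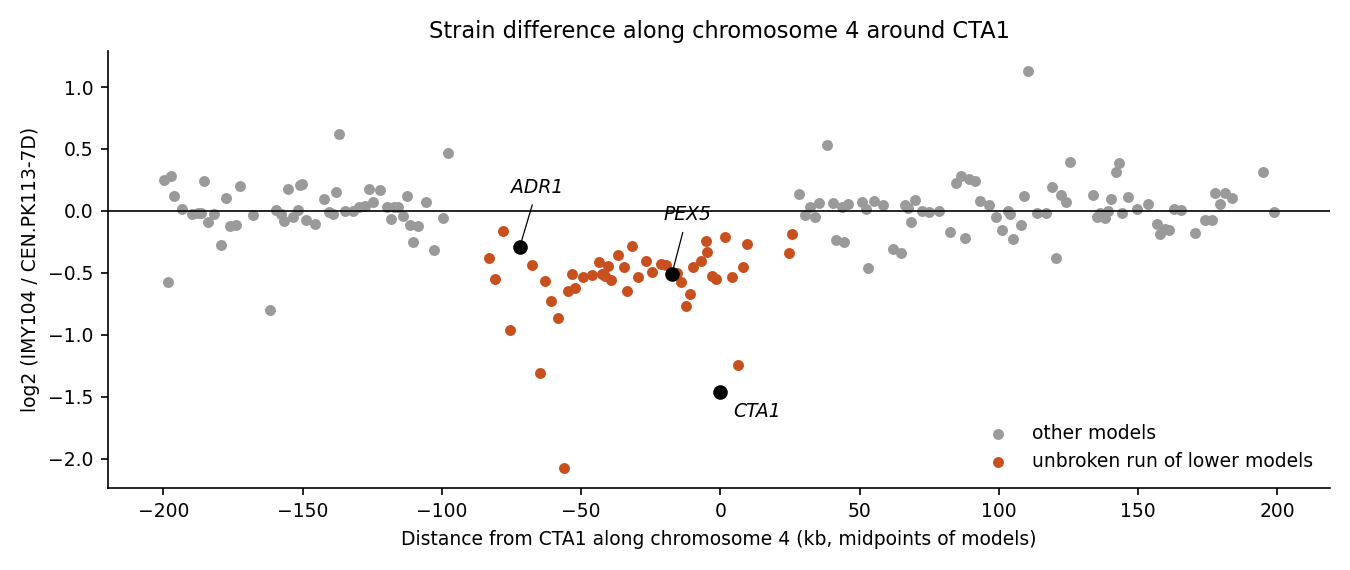
Log2 ratio of IMY104 over CEN.PK113-7D for tested models within 200 kb of CTA1 on chromosome 4, plotted against the distance in kb between midpoints of models. The 49 models of the unbroken run lie below 0, mostly near -0.51, while CTA1 lies at -1.46, and models beyond the run scatter around 0.

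Around the other 9 genes no stretch of that length was seen. The median log2 fold change of the models around them, up to 10 on each side, ran from -0.028 to 0.057, against -0.43 around CTA1. Of those 176 models 15 were called lower in the authors' deposited table, beside 11.0% of all tested models. Around CTA1 14 of the 20 were. The most around 1 of the 9 genes was 5 of 20, around IDP3. There PBI2, HEF3 and SPO1 in a row had -0.43, -0.85 and -0.57, and HEF3 lay below IDP3. In 7 of the 10 genes, CTA1 among them, the member was lower than every model around it. POT1, at -0.443, lay barely below AIM20, at -0.441, which was called lower. The exceptions among the 10 were PXA2, POX1 and IDP3, each with 1 neighbour below it. For PXA2 that neighbour was the adjacent gene FAT3 (YKL187C), which is needed for fatty acid uptake and was called lower, from 271 to 30.8 FPKM. FAT3 lies on the same strand as PXA2, on the side of its start, and the models are 497 bases apart.

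SPS19 shares its upstream region with SPS18, a sporulation gene read in the other direction, with 300 bases between them in R64. The element printed above begins 135 bases from SPS18 and spans -166 to -143 from the first coding base of SPS19. SPS18 was called higher, with a log2 fold change of 0.39, while SPS19 fell by 0.39 on the log2 scale. The level of SPS18 was low, 6.73 FPKM in the reference and 8.83 in IMY104. POT1 and its neighbour SMU2 end 50 bases apart and face each other, and SMU2 was called higher with 0.39. Library preparation as described does not mark the strand, and reads from overlapping ends of such facing genes cannot be told apart.

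**Figure D4:**
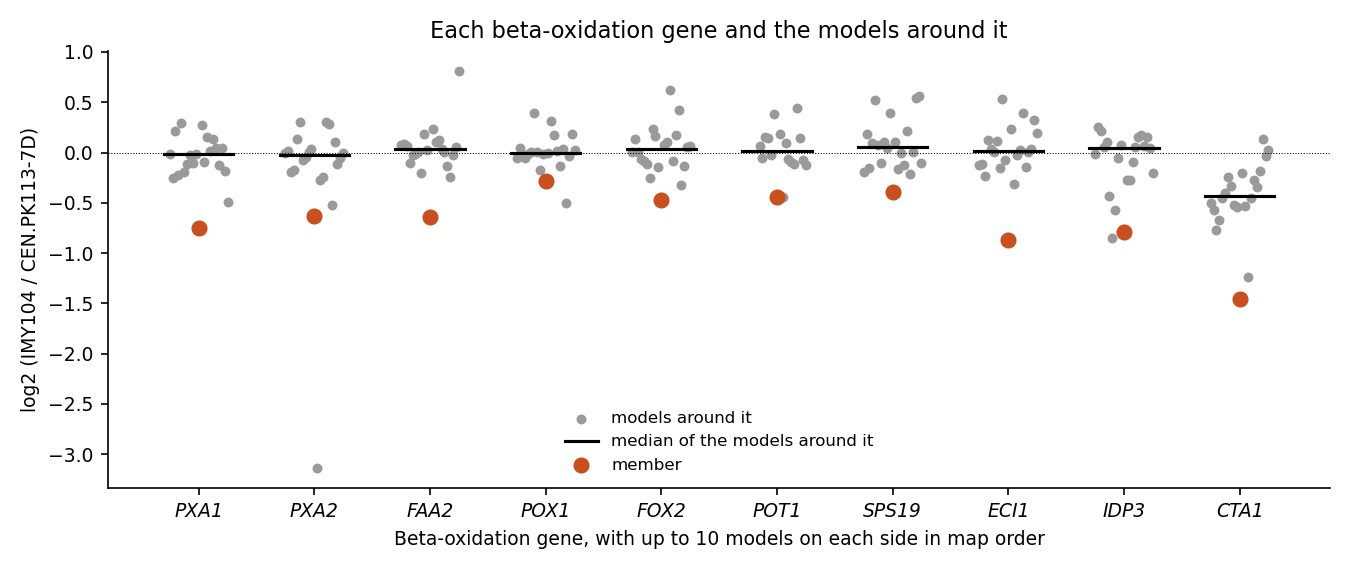
Log2 ratio of IMY104 over CEN.PK113-7D for each of the 10 genes (large points) and for the models around it, up to 10 on each side in map order (small points), with their median as a line. The lines lie between -0.028 and 0.057 for 9 genes and at -0.43 for CTA1. The point near -3.14 beside PXA2 is FAT3.

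Of 8 isozymes and paralogs of the members, 4 fell and 1 rose in the authors' deposited table, with a median log2 fold change of -0.25. Over all tested models 11.0% were called lower and 11.6% higher. Beside IDP3 stand the mitochondrial IDP1 and the cytosolic IDP2, which share 69.8% and 75.5% of their aligned residues with it. IDP2 fell from 1370 to 853 FPKM, a log2 fold change of -0.68, and IDP1 rose from 194 to 232 FPKM, with 0.26. IDP3 was thus level with IDP1 in the reference, at a ratio of 0.984, and at 0.475 of it in IMY104. How reads shared by such similar genes were divided is not given, and these values are uncertain to that extent.

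The cytosolic catalase CTT1, with 46.0% identity to CTA1, fell from 33.5 to 20.5 FPKM, a log2 fold change of -0.71. CTA1 had 53.4 times the level of CTT1 in the reference and 31.7 times in IMY104. DCI1, the paralog of ECI1 with 48.0% identity, fell with -0.46 from 217 to 158 FPKM. ERG10, the cytosolic thiolase of the mevalonate pathway, had 0.19 and was not called, against -0.44 for the peroxisomal thiolase POT1. Among the acyl-CoA synthetases outside the peroxisome FAA4 fell with -0.35, while FAA1 and FAA3 had -0.15 and -0.05 and were not called.

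Of 5 listed genes that activate, import or bind fatty acids 2 fell and none rose. Beside this, 11.0% of all tested models were called lower and 11.6% higher. FAA4 was among them, and ACB1, the acyl-CoA binding protein, was the other, with -0.37. FAT1, a fatty acid importer of the plasma membrane, had 0.03 and was not called. Of 7 peroxisomal enzymes beside the cycle 3 fell and none rose, with the same shares over all models. These were the thioesterase TES1 with -0.56, the lipase LPX1 with -0.49 and the nicotinamidase PNC1 with -0.47. The ATP carrier ANT1 had -0.23 and MDH3, which passes NADH out as malate, had -0.11, and neither was called.

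Most genes listed for the use or carriage of acetyl units went the other way. Whether they act on acetyl-CoA from beta-oxidation in these cultures was not tested. Of 5 measured, 4 rose and none fell, beside 11.6% of all tested models called higher and 11.0% lower. CIT2, the peroxisomal citrate synthase, had a log2 fold change of 2.01, the malate synthase MLS1 1.19, the mitochondrial carnitine carrier CRC1 1.04 and the carnitine acetyltransferase YAT2 0.81. CAT2, the carnitine acetyltransferase of peroxisomes and mitochondria, had 0.02, with 397 and 402 FPKM, and was not called. YAT1, also on that list, is not analysed here.

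Among the regulators ADR1 fell from 86.3 to 70.6 FPKM. The partners of the oleate response had log2 fold changes of 0.05 for OAF1 and -0.18 for PIP2, and the repressor OAF3 had 0.02, and none of these passed the authors' threshold. Genes outside the peroxisome that Adr1 is known to activate all fell in the 3 cases measured, beside 11.0% of all tested models. These were the lactate permease JEN1 with -1.24, the acetate transporter ADY2 with -1.10 and the mitochondrial aldehyde dehydrogenase ALD4 with -0.92. ADH2 and GUT1, also on that list, are not analysed here. The list was drawn up with earlier results of these data known. ADR1 lies in the run on chromosome 4, and a link between its level and the falls of these genes was not tested.

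The machinery that builds the peroxisome was called lower about as often as all models. Of 30 genes for import into the peroxisome, its membrane and its number, 3 fell and none rose in the authors' deposited table, with a median log2 fold change of -0.09, beside 11.0% of all tested models called lower and 11.6% higher. PEX5 fell with -0.51 and lies in the run on chromosome 4, PEX32 fell with -0.39 and PEX30 with -0.26. In matrix import the largest differences after PEX5 were those of PEX13, with 0.24, and PEX17, with -0.19, neither called. PEX27 had a log2 fold change of -0.20 and was not called. PEX11, which promotes peroxisome division, had 1149 and 997 FPKM, a log2 fold change of -0.20, and was not called.

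**Figure D5:**
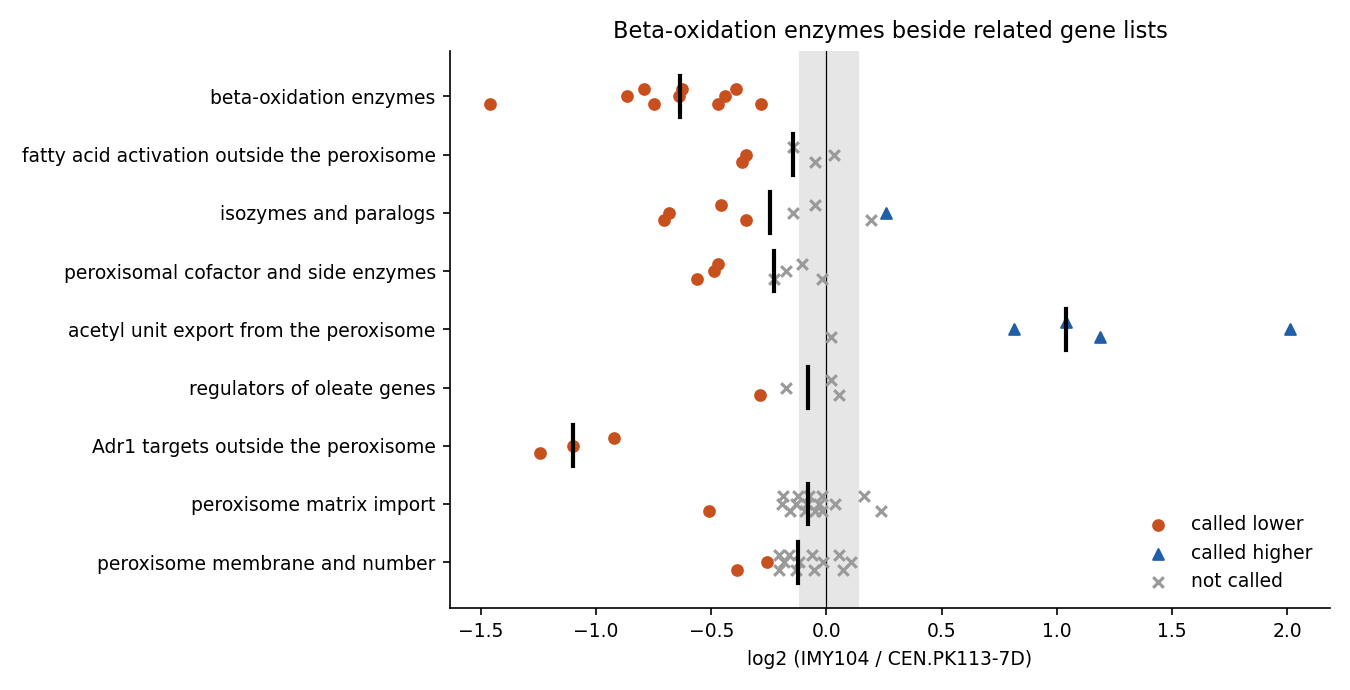
Log2 ratio of IMY104 over CEN.PK113-7D for the 10 beta-oxidation genes and for related lists, 1 point per gene, with a line at each list's median. Circles were called lower and triangles higher in the authors' deposited table, crosses were not called, and the grey band runs between the quartiles of all chromosomal models. All 10 beta-oxidation genes lie left of the band, and 4 genes that use or carry acetyl-CoA lie to its right.

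Strict forms of the signals of peroxisomal import were searched for in translations of the R64 genes. The type 1 signal, which Pex5 recognises, was serine, alanine or cysteine, then lysine, arginine or histidine, then leucine or methionine. It formed the last 3 residues of FOX2, SPS19 and IDP3, against 0.483% of 6002 proteins. The type 2 signal, which Pex7 recognises, stood within the first 40 residues of POT1, against 0.100% of proteins. The other members matched neither form, and looser forms were not searched. The receptor genes had log2 fold changes of -0.51 for PEX5, called lower, and -0.09 for PEX7, not called.

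The labels of the strains were checked on the deleted genes. ACS1 went from 1094 FPKM in the reference to 0.882 in IMY104, and ACS2 from 494 to 0.179. The 7 plasmid models had 344 to 10685 FPKM in IMY104 and at most 2.74 in the reference.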

How the data were processed

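RNA of 6 libraries, 3 per strain, was measured. Cufflinks, Cuffdiff, SAMtools (0.1.7-r510), CASAVA (1.8.2) and BWA (0.5.9-r16) are listed in the submitters' processing notes without their roles. The build and how libraries were scaled are not given. The authors deposited 1 table with an FPKM value per strain, the log2 fold change, the same change as a signed fold, a score (the test statistic), a p-value and a q-value over all models, with no value per library. Of 5479 gene models, 16 were untested, and 5447 blank lines were dropped. The deposited log2 values equalled the log2 ratio of the FPKM within 0.0001, and the q-values equalled Benjamini-Hochberg values of the p-values within 1e-06. Calls are the authors' own at q under 0.05, and p-values adjust over all tested models. Fold changes here are log2 ratios of the deposited FPKM with no pseudocount or filter.

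The members have 1 model each, and its length equalled that of the R64 gene in all 10 cases. The members and lists were chosen with earlier results of these data known. Lists were matched by systematic name (R64), and the genes named are the members, their isozymes, every called gene of a list, up to 3 of the largest changes in lists with fewer calls, and the models next to CTA1. FAT3, AIM20, PBI2, HEF3, SPO1, SPS18, SMU2, CRF1, FAT1, ANT1, MDH3, CAT2, OAF3, PEX7, PEX11 and the genes of the closing section were added after their values were seen. Motifs, translations and alignments (BLOSUM62) used R64 with Python 3.11.15 and Biopython 1.88, and the motif search and the adjustment were tested on simulated data. Promoter windows were cut from the genome because no table of promoters was used here.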

Additional observations from a re-analysis of the deposited data

How the results depend on the processing

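The table gives 1 value per strain, so no library could be left out. No paired analysis was possible because the columns carry no replicate. Of the 10 members, 9 remained called lower at q under 0.01 (8.51% of all models were lower there), 6 with a change of at least 1.5-fold and 1 with at least 2-fold. By Bonferroni adjustment 0 of them passed, which follows from the smallest p in the table, 5e-05, times 5463 models. A minimum mean of 10 FPKM kept 10, and 9 were called without CTA1. Both outcomes were fixed in advance, since the lowest value of a member was 62.9 FPKM, for PXA2 in IMY104, and all members were called. The median log2 fold change lay between -0.67 and -0.61 with pseudocounts of 1 and 5 FPKM, median centring, quantile normalization, the mean in its place, or without CTA1. All 50 values of single members kept their direction over 5 settings, 1 of which is the main value itself. A pseudocount cannot change a direction, so only median centring and quantile normalization could have done so. The smallest fall under quantile normalization was that of POX1, at -0.20. The largest shift by scaling or pseudocount was 0.085. Centring on the models around each gene, added after seeing the data, left CTA1 at -1.03. Called lower among the 59 related genes were 15, and 13 at q under 0.01, beside 11.0% and 8.51% of all tested models. The element was found in 5 members with 12 to 20 bases between the triplets and in 9 with 500 bases before the start.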

Other observations

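Genes other than the members that hold an oleate response element were split between lower and higher calls. The window was 250 bases before to 50 after the first coding base. Of 217 such genes measured, 29 were called lower in the authors' deposited table (13.4%) and 24 higher (11.1%), with a median log2 fold change of 0.0016, beside 11.0% and 11.6% over all tested models. Those called lower included the peroxisomal genes TES1, LPX1, DCI1 and PEX5, and also MPC1 and MPC3, subunits of the mitochondrial pyruvate carrier, with -0.73 and -0.70. The lowest was PAI3, an inhibitor of a vacuolar protease, with -1.06, from 3194 to 1535 FPKM. The highest was ARI1, an aldehyde reductase, with 1.37, from 12.4 to 32.0 FPKM. These genes were named for their values. Among those called higher, SPS18 shares the element printed for SPS19. Among those called lower, PEX5, ADK1 and PRP28 lie in the run on chromosome 4. No test of the set was made.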
